A study of Homo sapiens with 8 samples.

Results

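The genes described here are 10 heat shock chaperones: HSPA8, HSPA1A, HSPH1, DNAJA1, DNAJB1, HSP90AA1, HSP90AB1, HSPA9, HSPD1 and HSPE1. They were taken by gene symbol, each matched a single entry in the deposited tables, and they make up 10 of 58302 genes, of which 30194 were above 0 in a library. The data are 8 libraries of MOLM-13, a human acute myeloid leukaemia line that carries an internal tandem duplication in the kinase FLT3. Ribosome footprints and input RNA were each sequenced from cells with a control short hairpin (sh-NC) and from cells with a hairpin directed at the circular RNA circMYBL2 (sh-circMYBL2), with 2 libraries in each of the 4 groups. All groups share the same line and carry a hairpin. A single hairpin against circMYBL2 is named, and neither the way the hairpins were delivered nor the origin of the libraries of a group (separate cultures or not) is given in the sources used here, so p-values measure the spread between these libraries.

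Chaperones of the HSP70 family bind exposed hydrophobic stretches of unfolded proteins and release them in a cycle of ATP hydrolysis. J-domain proteins such as DNAJA1 and DNAJB1 deliver the substrate and stimulate hydrolysis, and HSP110 proteins such as HSPH1 exchange the nucleotide. HSP90 receives partly folded kinases and steroid receptors from HSP70 and brings them to an active state, and mutant FLT3 is among the kinases known to depend on it. HSPA9 (mitochondrial HSP70), HSPD1 (HSP60) and its co-chaperonin HSPE1 (HSP10) do the corresponding work in the mitochondrial matrix, so the set is not limited to the cytosol.

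Reads on genes numbered 13507486 to 14606366 in the input RNA libraries, whereas the footprint libraries of sh-NC held 80160 and 300379 and those of sh-circMYBL2 222855 and 715092. Protein-coding genes took 33708 and 88701 of the footprint reads in the control libraries, against 125761 and 584185 where circMYBL2 was targeted. Their share was larger in each sh-circMYBL2 library than in either control. The totals used for scaling were, in that order, 82265, 185632, 258922 and 1113399, and departed unevenly from reads on genes. Footprint changes below include both differences, as does the translational efficiency. After rescaling to protein-coding genes the median footprint log2 change was 0.41, against 0.56 over all genes tested. Of 12 myeloid markers, 11 passed the filter on low values in RNA, and their summed level was 819 to 860 FPKM with sh-NC and 1008 to 1052 FPKM with sh-circMYBL2. Of the 11, ITGAM, FLT3 and CEBPA rose and 0 fell in limma (adjusted p = 0.0228, 0.0232 and 0.0468). Over all genes tested in RNA, 4.92% rose and 3.96% fell. A log2 change above 0 was seen in 7 of the 11, against 49.1% of all genes. LYZ, which made up most of the sum, averaged 581 and 730 FPKM and did not pass (adjusted p = 0.0554), and MPO, CD33, SPI1 and MEIS1 had changes below 0. The erythroid, megakaryocytic and lymphoid marker lists, each summed apart, reached at most 1.14 FPKM in any library. HBA2, HBG1, ALAS2, PF4, PPBP, GP9, GP1BA, MS4A1 and CD2 were listed at 0. The part of the myeloid markers in the results below was not tested.

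Heat shock genes are classically switched on by heat shock factor 1 (HSF1), which binds inverted repeats of the unit GAA. RefSeq promoter windows of GRCh38.p14, from 250 bases before to 50 bases after an annotated start, were found for all 10 genes (16 windows). A repeat of 3 such units (GAANNTTCNNGAA or TTCNNGAANNTTC, which covers both strands) was present in windows of 5 genes, DNAJA1, HSP90AA1, HSP90AB1, HSPA8 and HSPD1, against 0.608% of the 27305 genes with a window. The shorter repeat of 2 units (GAANNTTC or TTCNNGAA, which the longer repeat contains) was present for 8 of 10, the further ones being DNAJB1, HSPA1A and HSPA9, against 16.2% of genes. The 7 stretches with the longer repeat are shown because it is the fuller form of the HSF1 repeat. They are in lower case with the repeat in capitals, 5′ to 3′ on the strand of the gene. Those of HSPA8, HSP90AA1, HSP90AB1 and HSPD1 lie within the annotated gene and upstream of an alternative or internal start.
HSPA8, chr11:123062346-123062375, minus strand: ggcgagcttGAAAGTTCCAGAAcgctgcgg
HSPA8, chr11:123062171-123062200, minus strand: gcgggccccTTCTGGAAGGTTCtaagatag
HSP90AA1, chr14:102087112-102087141, minus strand: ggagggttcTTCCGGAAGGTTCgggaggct
HSP90AB1, chr6:44247769-44247798, plus strand: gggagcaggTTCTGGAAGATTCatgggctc
HSP90AB1, chr6:44247822-44247851, plus strand: ctgagattgTTCTGGAAGCTTCtggattct
DNAJA1, chr9:33025267-33025296, plus strand: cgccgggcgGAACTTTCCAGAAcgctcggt
HSPD1, chr2:197500061-197500090, minus strand: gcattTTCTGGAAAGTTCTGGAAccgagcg

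A different motif was found in windows of the 3 mitochondrial genes. HSPD1 and HSPE1 are transcribed away from each other, and 104 bases separate their starts on chromosome 2. The letters CACGTG, an E-box that reads the same on both strands and is bound by basic helix-loop-helix factors such as MYC, were present in windows of HSPA9, HSPD1 and HSPE1 and in none of the other 7 genes. The windows of HSPD1 and HSPE1 overlap and hold the same E-box, so the 3 genes have 2 sites among them. This match was searched for after the windows had been read, and 8.77% of all genes with a window had it. Other motifs searched on both strands were TATAAA, found for HSPA1A alone (14% of genes), CCAAT, found for DNAJB1, HSP90AA1, HSPA1A and HSPA8 (39.7% of genes), and TGATGNAA, a composite element of ATF4 and CEBP factors, found for none of the 10 (4.46% of genes). A match is a description of these letters and does not show binding. The 60 bases before the HSPA9 start, which overlap the annotated gene LOC105379193, and the interval between HSPD1 and HSPE1 on the HSPE1 strand are shown with the E-box in capitals.
HSPA9, chr5:138575402-138575461, minus strand: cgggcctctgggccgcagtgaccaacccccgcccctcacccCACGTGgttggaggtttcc
HSPD1 to HSPE1, chr2:197500275-197500378, plus strand: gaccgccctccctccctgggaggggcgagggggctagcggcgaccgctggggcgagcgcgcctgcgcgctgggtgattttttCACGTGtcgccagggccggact

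The first comparison asked which of these genes differed in input RNA between the hairpins. With sh-circMYBL2, HSPA9 RNA was at 0.698 times and HSP90AA1 RNA at 1.15 times its sh-NC level, and the other 7 genes that could be tested did not pass. FPKM, reads divided by gene length and by a scaling total of the library, were compared with limma on log2(FPKM + 1), with Benjamini-Hochberg adjustment over 12489 genes and a threshold of 0.05. In this test 1 of 9 genes was higher and 1 was lower, against 4.92% and 3.96% of all genes tested (8.88% in either direction). The median log2 change was 0.06 over the 9 genes and -0.00 over all genes. Groups did not overlap for 4 genes that were higher and 2 that were lower, against 30% and 30.7% of all genes. In a bulk library, fewer cells that hold an RNA and less RNA per cell cannot be told apart.

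**Figure D1:**
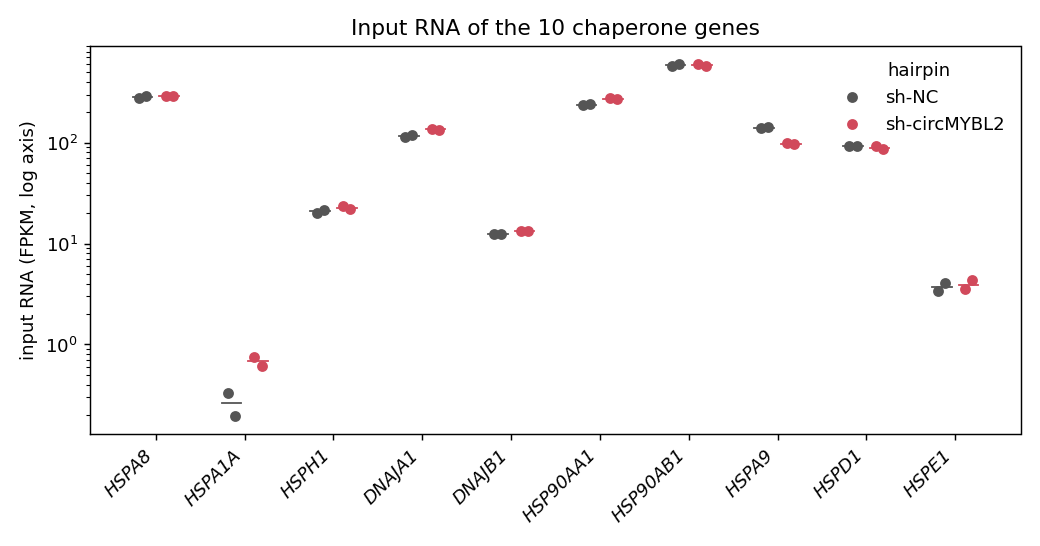
Input RNA of the 10 chaperone genes in FPKM on a log axis, with 1 point for each library (grey sh-NC, red sh-circMYBL2, 2 each) and a line at the mean of each group. HSPA9 lies at 139 and 142 FPKM with sh-NC and at 99.0 and 96.8 FPKM with sh-circMYBL2, HSP90AA1 lies slightly higher with sh-circMYBL2, and the levels of the set run from below 1 FPKM for HSPA1A to 608 FPKM for HSP90AB1.

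The cytosolic HSP90 pair made up the greater part of the set's RNA per length. HSP90AB1, the constitutive form (chr6:44246194-44253883, ENSG00000096384), stood at 577 and 603 FPKM with sh-NC against 608 and 575 FPKM with sh-circMYBL2. The groups overlapped, and the log2 change was 0.00 (SE 0.05, 95% interval -0.13 to 0.13; limma, adjusted p = 0.969). Its level exceeded that of 99.6% of the 9093 protein-coding genes tested. HSP90AA1, the stress-inducible form (chr14:102080742-102139749, ENSG00000080824), stood at 235 and 239 FPKM with sh-NC against 275 and 272 FPKM with sh-circMYBL2, from 16417 to 20731 reads. Both sh-circMYBL2 libraries were above both sh-NC libraries, with means of 237 ± 2.69 and 274 ± 2.39 FPKM (SD, n = 2). HSP90AA1 rose by 0.21 on the log2 scale (SE 0.03, 95% interval 0.12 to 0.29; limma, Benjamini-Hochberg adjusted p = 0.0357). The call was lost without the filter on low values (limma, adjusted p = 0.0983) and over genes above 0 in every library (0.0503). Without any 1 RNA library the log2 change was 0.195 to 0.218, and calls were lost over the whole table, that of HSP90AA1 among them. Quantile normalization took the change to 0.10 (adjusted p = 0.104).

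Of the cytosolic HSP70 genes, HSPA8 (HSC70, the constitutive form, chr11:123057489-123062462, ENSG00000109971) stood at 275 and 293 FPKM with sh-NC against 292 and 293 FPKM with sh-circMYBL2. All but sh-NC library 1, which was lower, were nearly equal. The log2 change was 0.04 (SE 0.04, 95% interval -0.07 to 0.16; limma, adjusted p = 0.541). HSPH1, an HSP110 protein that exchanges the nucleotide of HSP70 (chr13:31134973-31162388, ENSG00000120694), stood at 20.2 and 21.4 FPKM with sh-NC against 23.5 and 21.9 FPKM with sh-circMYBL2. Both values with sh-circMYBL2 were higher, by 0.12 on the log2 scale, which did not pass (SE 0.05; limma, adjusted p = 0.248).

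HSPA1A, the classical heat-inducible HSP70 (chr6:31815543-31817942, ENSG00000204389), was near the lower end of detection. It had 11 and 7 reads with sh-NC against 26 and 22 reads with sh-circMYBL2, or 0.333 and 0.196 against 0.754 and 0.610 FPKM, below the filter. The groups did not overlap, and the ratio of reads scaled to library totals was 2.6, with an exact 95% interval of 1.49 to 4.75 that covers counting error only. Without the filter the limma change was 0.41 (SE 0.11, adjusted p = 0.234). Its neighbour HSPA1B encodes an almost identical protein and had 428 and 430 reads with sh-NC against 386 and 403 reads with sh-circMYBL2. For HSPA1B the corresponding read ratio was 0.897 (0.813 to 0.989), opposite in direction. Reads shared by near-identical copies may have been assigned to either, so the split is uncertain, and the sums of 439 and 437 against 412 and 425 reads are the firmer quantity. HSPA1A was listed at 0 in all 4 footprint libraries, and all footprint reads of the pair were listed for HSPA1B. They numbered 2 and 14 in sh-NC libraries and 5 and 38 in sh-circMYBL2 libraries, or 9.64 and 29.9 against 7.66 and 13.5 RPKM.

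Both J-domain partners were higher in both sh-circMYBL2 libraries without passing. DNAJA1 (chr9:33025273-33039907, ENSG00000086061) stood at 114 and 120 FPKM with sh-NC against 136 and 134 FPKM with sh-circMYBL2. The groups were apart and the log2 change of 0.20 (SE 0.04, 95% interval 0.10 to 0.31) was close to that of HSP90AA1, but its adjusted p of 0.0536 (limma) lay just above the threshold. It passed after rescaling to protein-coding genes (log2 change 0.23) and with voom on recovered reads (0.20, adjusted p = 6.28e-05). DNAJB1, the main J-domain partner of inducible HSP70 (chr19:14514769-14560391, ENSG00000132002), stood at 12.5 and 12.6 FPKM with sh-NC against 13.4 and 13.4 FPKM with sh-circMYBL2. Replicates lay very close together, and the log2 change was 0.09 (SE 0.04; limma, adjusted p = 0.222).

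Among the mitochondrial chaperones, HSPA9 was set apart from HSPD1. HSPA9, which pulls precursor proteins into the matrix and folds them there (chr5:138553756-138575401, ENSG00000113013), stood at 139 and 142 FPKM with sh-NC against 99.0 and 96.8 FPKM with sh-circMYBL2, from 6527 to 9701 reads. The means were 141 ± 1.79 and 97.9 ± 1.54 FPKM (SD, n = 2), so the gap was far larger than the spread within either group. HSPA9 fell by 0.52 on the log2 scale (SE 0.03, 95% interval -0.60 to -0.43; limma, Benjamini-Hochberg adjusted p = 0.0104). The estimate stayed between -0.54 and -0.49 under every alternative run. Without any 1 RNA library it was -0.534 to -0.503, but calls were lost over the whole table, that of HSPA9 among them. HSPD1, the chaperonin that encloses matrix proteins (chr2:197486584-197500274, ENSG00000144381), stood at 92.6 and 92.6 FPKM with sh-NC against 92.3 and 86.6 FPKM with sh-circMYBL2. The first sh-circMYBL2 library lay next to the sh-NC libraries, and the log2 change was -0.05 (SE 0.04, 95% interval -0.16 to 0.06; limma, adjusted p = 0.487). HSPE1, the lid of the HSPD1 chamber (chr2:197500379-197503449, ENSG00000115541), stood at 3.38 and 4.04 FPKM with sh-NC against 3.53 and 4.32 FPKM with sh-circMYBL2. The groups overlapped, with a log2 change of 0.06 (SE 0.12; limma, adjusted p = 0.772).

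HSPE1 and HSPD1 are subunits of a single machine, yet HSPD1 RNA per length was 20.1 to 27.4 times that of HSPE1, whose level exceeded only 33.3% of protein-coding genes tested. Related entries of the tables stand beside this value, and their part in it was not tested. The 26 HSPE1 pseudogenes listed, 16 of them above 0, together held 123 to 179 RNA reads, or 99.2% to 161% of the HSPE1 reads themselves. The readthrough gene HSPE1-MOB4, which shares the annotated start of HSPE1, was listed at 0 in all 8 libraries. For HSPA8, HSP90AA1, HSP90AB1, HSPD1 and HSPA9 the reads on pseudogenes were at most 1.45% of the reads on the gene in RNA libraries and at most 3.16% in footprint libraries. How reads that match several copies were assigned is not given in the sources used here, so HSPE1 is the most uncertain level of the set after HSPA1A.

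**Figure D2:**
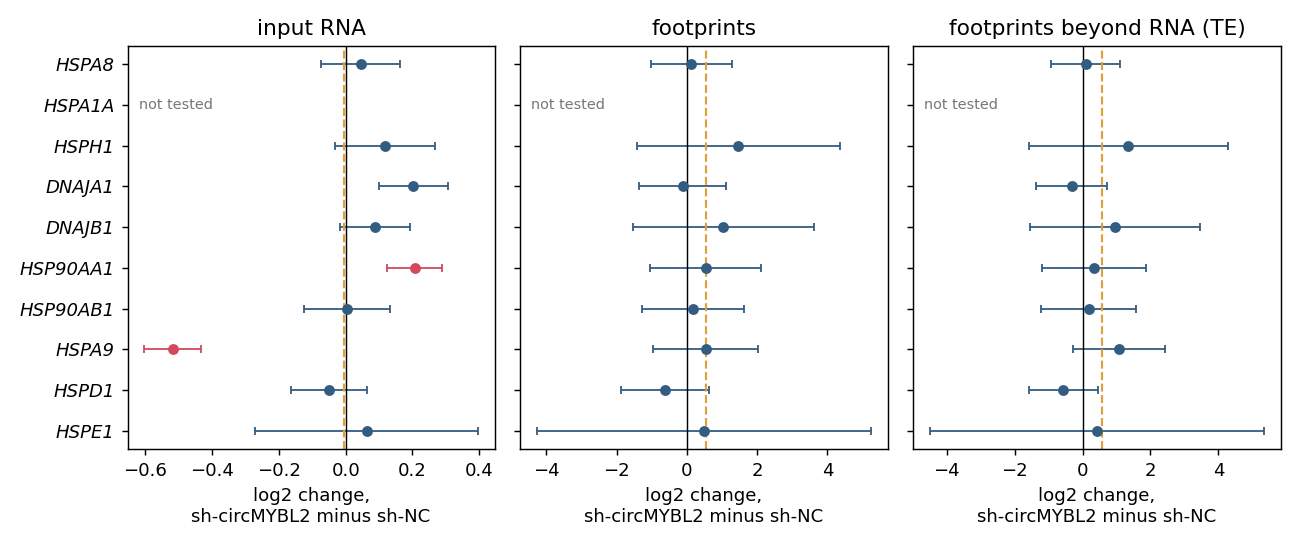
Log2 change with sh-circMYBL2 for each of the 10 genes in input RNA, in footprints and in footprints beyond RNA, with 95% intervals from limma. Red marks genes past the adjusted threshold, the dashed line is the median of all genes tested, and HSPA1A was not tested. HSP90AA1 and HSPA9 are red in the RNA panel, whose axis is much narrower than those of the footprint panels.

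The second comparison asked whether ribosome occupancy of the same genes differed. None of 9 genes passed in footprints, measured as RPKM (the same scaling as FPKM) and fitted in the same manner (limma, Benjamini-Hochberg over 9431 genes, adjusted p = 0.627 to 0.922). Of all genes tested 0% passed in limma, although 1212 genes had an unadjusted p under 0.05, of which 0 were among these chaperones. Voom on recovered reads called 56 genes and 0 chaperones. The median log2 change was 0.49 over the 9 chaperones and 0.56 over all genes tested, and -0.01 over the 4438 genes above 0 in every footprint library. The standard errors of the 9 log2 changes ran from 0.43 to 1.74, so that changes of the size seen in RNA were not detectable at this depth.

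The footprint data showed the abundant chaperones clearly. HSP90AB1 had 27 and 137 footprint reads in sh-NC libraries and 129 and 698 in sh-circMYBL2 libraries, or 110 and 248 against 167 and 210 RPKM. HSPA8 had 42, 161, 180 and 854 reads in the same order, or 105 and 179 against 143 and 158 RPKM. HSP90AA1 had 28, 156, 174 and 1007 reads, or 64.9 and 160 against 128 and 172 RPKM. In each of the 3 genes sh-NC library 1 was the lowest library and sh-NC library 2 lay between or above the sh-circMYBL2 libraries, so the groups overlapped. In footprints HSP90AB1 exceeded 99.5%, HSPA8 99.4% and HSP90AA1 99.3% of the 8330 protein-coding genes tested.

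The gap between the control libraries ran through much of the set. Among 4438 genes tested and above 0 in every footprint library, sh-NC library 1 was the lowest of the 4 in 32% of genes. It was the lowest in 6 of 8 chaperones, namely DNAJA1, HSP90AA1, HSP90AB1, HSPA8, HSPA9 and HSPH1. The median log2 ratio of sh-NC library 1 to library 2 was -0.97 over the 8 chaperones and 0.00 over all of these genes. The 10 chaperones took 0.424% and 0.720% of protein-coding footprint reads in sh-NC libraries and 0.540% and 0.620% in sh-circMYBL2 libraries, whereas in RNA they took 0.737% and 0.761% against 0.786% and 0.768%. The chaperone share was therefore lowest in the shallowest library, and the footprint changes of these genes depended on which sh-NC library they were set against.

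**Figure D3:**
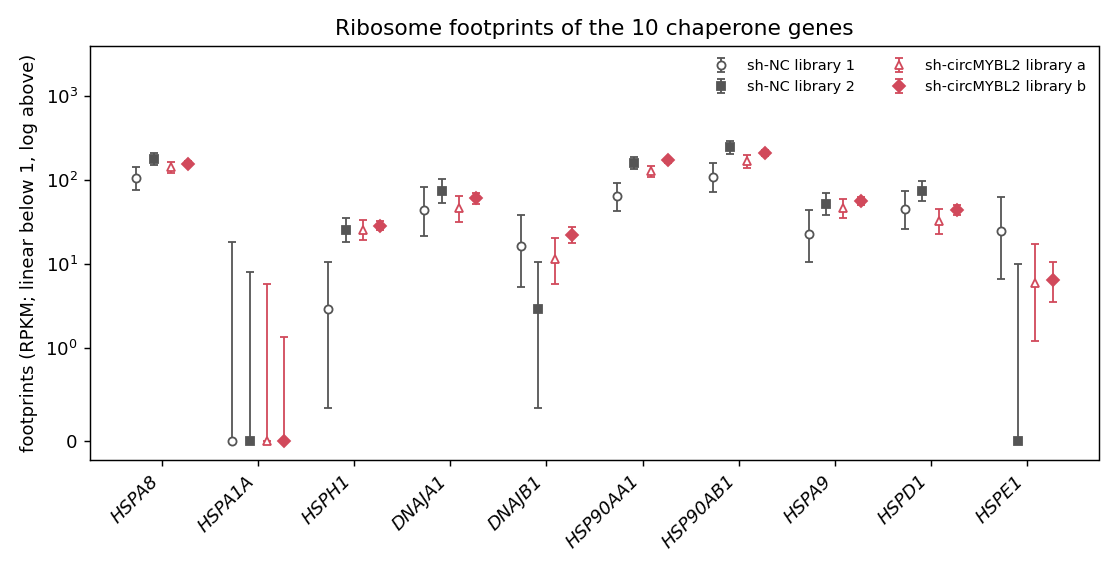
Ribosome footprints of the 10 chaperone genes in RPKM, on an axis that is linear below 1 and logarithmic above, with 1 point for each library and 95% Poisson intervals for counting error. The open grey circle, sh-NC library 1, lies below the other 3 libraries for HSPA8, HSPH1, DNAJA1, HSP90AA1, HSP90AB1 and HSPA9, and above them for HSPE1.

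HSPH1 was the only chaperone whose footprints were higher in both sh-circMYBL2 libraries, against 30.7% of all genes. It had 2 and 40 reads in sh-NC libraries and 56 and 268 in sh-circMYBL2 libraries, or 2.90 and 25.7 against 25.8 and 28.7 RPKM. The separation rests on sh-NC library 1, whose 2 reads allow 0.351 to 10.5 RPKM (95% Poisson interval, counting error only), while library 2 lay next to the lower sh-circMYBL2 library. The log2 change of 1.47 had an SE of 1.06 (limma, adjusted p = 0.627) and was 0.08 without sh-NC library 1.

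Footprints of HSPD1 were lower in both sh-circMYBL2 libraries, against 10.9% of all genes. It had 16 and 59 reads in sh-NC libraries and 36 and 208 in sh-circMYBL2 libraries, or 45.8 and 74.9 against 32.8 and 44.0 RPKM. The change of -0.61 did not pass (SE 0.45, 95% interval -1.86 to 0.63; limma, adjusted p = 0.627), and its sign held without any 1 footprint library (-0.96 to -0.26). HSPA9, which fell in RNA, had 9 and 46 footprint reads in sh-NC libraries and 57 and 299 in sh-circMYBL2 libraries, or 23.0 and 52.2 against 46.3 and 56.5 RPKM. Here sh-NC library 2 lay between the sh-circMYBL2 libraries, and the log2 change was 0.55 (SE 0.55, 95% interval -0.95 to 2.04; limma, adjusted p = 0.7).

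The J-domain genes and HSPE1 rested on few footprints. DNAJA1 stood at 44.5 and 75.0 RPKM with sh-NC against 46.7 and 60.9 RPKM with sh-circMYBL2, with the sh-circMYBL2 values inside the control range. DNAJB1 stood at 16.6 and 2.93 RPKM with sh-NC, from 5 and 2 reads, whereas sh-circMYBL2 gave 11.6 and 22.3 RPKM, from 11 and 91 reads. HSPE1 had 4 and 0 reads in sh-NC libraries and 3 and 14 in sh-circMYBL2 libraries, and the 0 of sh-NC library 2 allows a level of up to 8.17 RPKM by the value of 3 reads (10.1 RPKM by the two-sided Poisson interval plotted). For DNAJB1 and HSPE1 sh-NC library 1 lay above library 2, the opposite order to the other 7 genes with footprints.

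The third comparison, translational efficiency (TE), took the footprint change beyond the RNA change as an interaction of hairpin and assay in 1 fit of all 8 libraries. None of 9 chaperones passed (limma, adjusted p = 0.371 to 0.928), against 5.31% of 8260 genes tested, of which 5.05% were higher and 0.266% lower. The median log2 change in TE was 0.33 over the chaperones and 0.57 over all genes. The lowest adjusted p was that of HSPA9, whose TE differed by 1.06 on the log2 scale (SE 0.55, 95% interval -0.29 to 2.42; limma, adjusted p = 0.371). Those of HSPH1 (1.35, SE 1.19), DNAJB1 (0.95, SE 1.02) and HSPD1 (-0.56, SE 0.42) were likewise within error. HSPA8 and HSP90AB1 had changes of 0.09 (SE 0.41) and 0.18 (SE 0.57).

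Which chaperones passed in TE changed with the control library that was kept. Over all genes, TE calls in these fits were far more frequent than with all libraries. Without sh-NC footprint library 1, 37.2% of genes passed, and HSPE1 (2.77, adjusted p = 0.00339) and DNAJB1 (2.03, adjusted p = 0.0304) were higher and HSPD1 (-0.91, adjusted p = 0.0484) was lower in limma. Without sh-NC footprint library 2, 60.2% of genes passed, and HSPH1 (2.74, adjusted p = 0.000585), HSPA9 (1.64, adjusted p = 0.00268) and HSP90AA1 (0.98, adjusted p = 0.0322) were higher and HSPE1 (-1.91, adjusted p = 0.00244) was lower. HSPE1 thus passed in opposite directions, and the 3 and 4 of 9 chaperones called were no larger a share than that over all genes. In these fits the lone control library is assumed to vary like the other groups.

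Footprint RPKM per RNA FPKM sets the footprints of each gene against its RNA, with the reserve that the tables were normalized separately. Both values were divided by the same length of the whole gene, so the ratio also varies with the coding share of that length. The median over 7702 protein-coding genes was 0.638 with sh-NC and 0.849 with sh-circMYBL2. HSP90AB1 was low in both, at 0.303 and 0.319, which exceeded 29.5% and 12.5% of genes. HSPA8 stood at 0.501 and 0.516, which exceeded 42.8% and 26.6% of genes. HSPD1 stood at 0.652 and 0.429 (50.6% and 20.7%). HSPA9 stood at 0.267 and 0.526, yet its place among all genes was nearly the same with both hairpins (26.7% and 27.4%). The most abundant chaperone RNAs were therefore not those with the highest ratio, and HSPE1, with few reads, had the highest ratios of the set, 3.31 and 1.56.

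Ratios between chaperones of the same library do not depend on how that library was scaled. These pairs were chosen after their values were seen, and the share of other gene pairs whose groups do not overlap was not computed. HSP90AA1 over HSP90AB1 in RNA per length was 0.408 and 0.396 in sh-NC libraries and 0.453 and 0.473 in sh-circMYBL2 libraries. In footprints it was 0.589 and 0.647 in sh-NC libraries and 0.766 and 0.819 in sh-circMYBL2 libraries. The inducible form was thus a larger fraction of the pair in both sh-circMYBL2 libraries of both assays. The counting intervals were apart in RNA (0.389 to 0.416 against 0.444 to 0.482), but in footprints those of sh-NC library 1 (0.335 to 1.04) and library 2 (0.511 to 0.819) both reached the sh-circMYBL2 values.

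HSPA9 over HSPD1 differed in opposite directions in RNA and footprints. In RNA per length it was 1.51 and 1.53 in sh-NC libraries and 1.07 and 1.12 in sh-circMYBL2 libraries. In footprints it was 0.503 and 0.697 in sh-NC libraries and 1.41 and 1.28 in sh-circMYBL2 libraries. Groups did not overlap in either assay. Single genes did the same in RNA for 30% (higher) and 30.7% (lower) of genes tested, and in footprints for 30.7% and 10.9%. The footprint counting intervals were 0.196 to 1.21 and 0.463 to 1.04 with sh-NC and 0.916 to 2.21 and 1.07 to 1.54 with sh-circMYBL2. Those of both sh-NC libraries overlapped that of sh-circMYBL2 library a, and that of sh-NC library 1 also overlapped that of library b. With 2 libraries against 2, an exact permutation test cannot go below p = 0.333 (two-sided), and no other test of the ratios was run.

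**Figure D4:**
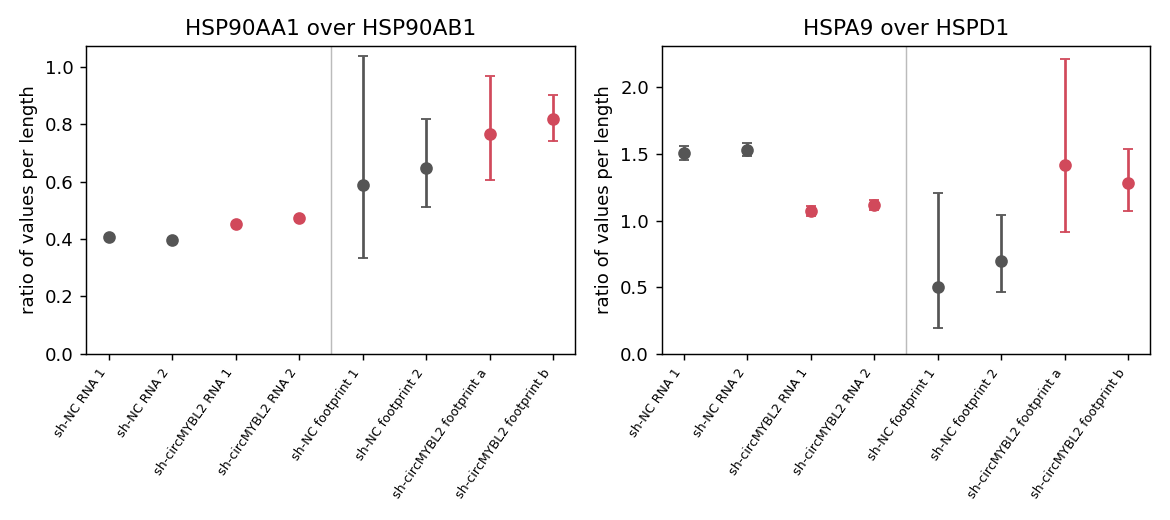
Ratio of HSP90AA1 to HSP90AB1 and of HSPA9 to HSPD1, per length, in each of the 8 libraries (grey sh-NC, red sh-circMYBL2), with 95% intervals for counting error. HSPA9 over HSPD1 is lower with sh-circMYBL2 in RNA (1.07 and 1.12 against 1.51 and 1.53) and higher in footprints (1.41 and 1.28 against 0.503 and 0.697).

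In the wider mitochondrial network a few genes fell and most did not pass. Of 14 genes of the mitochondrial import motor and matrix proteases, 0 were higher and 2 lower in RNA, against 4.92% and 3.96% of all genes, and the median log2 change was -0.03. LONP1, the matrix protease that degrades damaged and misfolded proteins, stood at 32.2 and 34.2 FPKM with sh-NC against 17.9 and 17.7 FPKM with sh-circMYBL2. It fell by 0.86 on the log2 scale (SE 0.04; limma, adjusted p = 0.00972). TIMM44, which tethers HSPA9 to the import channel, fell by 0.32 (SE 0.06; limma, adjusted p = 0.0493). GRPEL2, a nucleotide exchange factor of HSPA9, belongs to the list of exchange factors. It had means of 11.9 ± 0.420 and 8.93 ± 0.217 FPKM (SD, n = 2) and fell by 0.38 (limma, adjusted p = 0.0293). GRPEL1 of the same list did not pass (log2 change -0.11, limma adjusted p = 0.352). Of the 14 import and protease genes, 6 had a log2 change above 0, among them AFG3L2, another protease (0.21; limma, adjusted p = 0.0683).

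Partners and relatives of HSP70 passed singly, and the counts below are to be read against 4.92% of all genes higher and 3.96% lower. Of 9 nucleotide exchange factors of HSP70, 1 was higher and 1, GRPEL2, was lower, with a median of 0.06. BAG4, which binds the HSP70 ATPase domain, had means of 22.1 ± 0.229 and 26.2 ± 0.244 FPKM (SD, n = 2) and rose by 0.24 (limma, adjusted p = 0.0344). Of 22 other J-domain genes 20 were tested and 1 passed: DNAJC9, a histone chaperone, rose by 0.53 from 5.57 ± 0.297 to 8.51 ± 0.812 FPKM (limma, adjusted p = 0.0402). Of 10 other HSP70 and HSP110 genes 5 were tested and 1 passed: HSPA13, a microsomal member of the family, fell by 0.47 from 9.14 ± 0.631 to 6.30 ± 0.129 FPKM (limma, adjusted p = 0.0314).

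The HSP90 machinery showed no call beside HSP90AA1. None of the 19 co-chaperones tested of 22 listed passed, and 16 of them had a log2 change above 0 (median 0.07). PTGES3 (p23) averaged 90.6 and 88.4 FPKM, and ST13, an HSP70-interacting co-chaperone, 73.3 and 75.4 FPKM. The endoplasmic reticulum form HSP90B1 averaged 320 and 283 FPKM (log2 change -0.18; limma, adjusted p = 0.0822) and the mitochondrial form TRAP1 10.8 and 11.1 FPKM. Of 6 prefoldin subunits, which hand nascent actin and tubulin to the cytosolic chaperonin, 0 passed (median -0.10). PFDN2 averaged 165 and 133 FPKM (log2 change -0.30; limma, adjusted p = 0.0637) and PFDN5 51.1 and 57.5 FPKM (0.17, adjusted p = 0.0519). Of 9 genes listed by name as small heat shock proteins, 2 were tested and 0 passed. HSPB1 averaged 21.4 and 19.5 FPKM, HSPB11 1.26 and 1.88 FPKM, and HSPB2, HSPB3 and HSPB8 were listed at 0.

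Beside HSP90AA1, a single gene of the HSF1 lists passed. Of 7 heat shock factors and regulators tested, 0 passed, EEF1A1, an elongation factor also known to assist HSF1, averaged 957 and 943 FPKM, and HSF1 averaged 18.5 and 19.8 FPKM (log2 change 0.09; limma, adjusted p = 0.212). Of 22 other genes known as HSF1 targets, 20 were tested and 1 was higher, against 4.92% of all genes, with a median of 0.07: CACYBP, a co-chaperone of ubiquitin ligases, rose by 0.37 from 22.8 ± 0.282 to 29.8 ± 1.54 FPKM (SD, n = 2; limma, adjusted p = 0.0297).

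Kinases that depend on HSP90 passed in both directions. Of 23 listed, 20 were tested in RNA, 3 were higher and 1 lower, against 4.92% and 3.96% of all genes, and the median log2 change was 0.01. FLT3, the receptor mutated in these cells, rose by 0.40 from 105 ± 4.48 to 139 ± 3.63 FPKM (limma, adjusted p = 0.0232). The cell cycle checkpoint kinases CHEK1 (2.67 to 7.04 FPKM, adjusted p = 0.0102) and WEE1 (1.49 to 3.19 FPKM, adjusted p = 0.0228) rose as well in limma. The SRC family kinase FYN fell from 6.96 to 3.05 FPKM (limma, adjusted p = 0.0117). In footprints 0 genes of any of these lists passed in limma. In TE 1 of 19 client kinases and 1 of 14 import and protease genes were higher, against 5.05% of all genes. These were JAK2 (2.91, SE 0.35; limma, adjusted p = 0.0238) and TIMM23 (4.96, SE 0.34; limma, adjusted p = 0.0153). Both genes were listed at 0 in both sh-NC footprint libraries. Fits without 1 RNA library leave a single library in a group. In them calls were lost over the whole table, those named in these lists among them, so they cannot grade single genes.

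**Figure D5:**
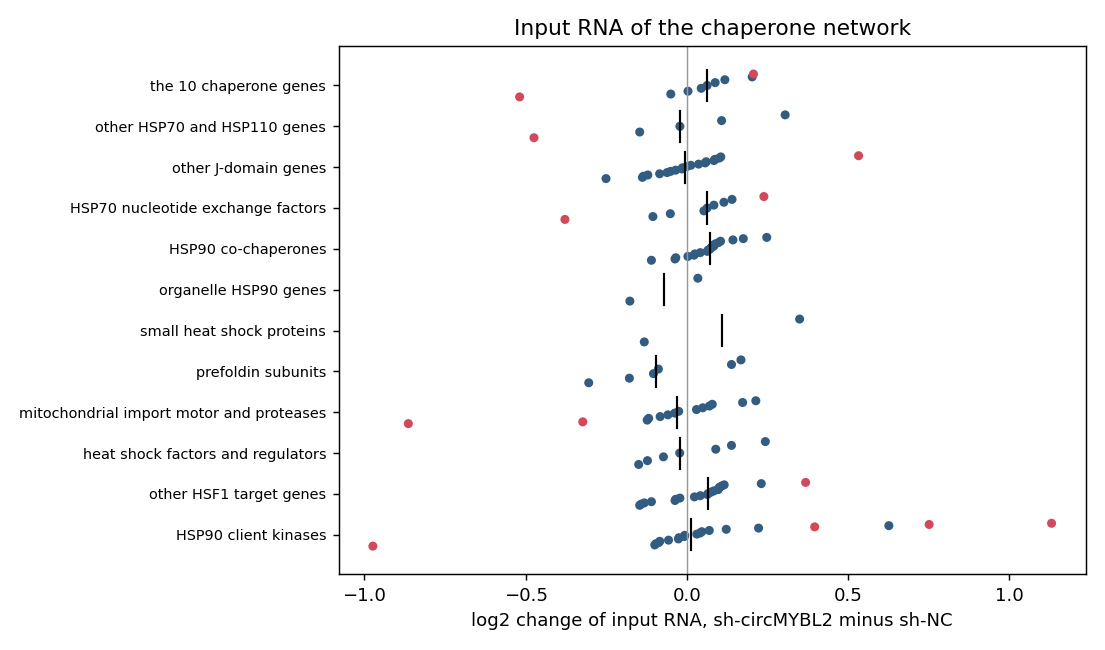
Log2 change of input RNA with sh-circMYBL2 for the tested genes of the 10 chaperones and of 11 lists of the chaperone network, with 1 point for each gene, red for genes past the adjusted threshold in limma, and a black line at the median of each list. List medians lie between -0.10 and 0.11, while LONP1 and FYN lie at -0.86 and -0.97 and CHEK1 at 1.13.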

How the data were processed

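Total RNA of MOLM-13 cells was made into 4 footprint and 4 input RNA libraries after removal of ribosomal RNA, with a kit for small RNA, per the labels' protocols. The submitters' processing notes name cutadapt, Bowtie, HISAT2, featureCounts, DESeq2 and hg38, without versions or roles; strand and multimapping settings are likewise not given. The authors deposited RPKM values for footprints and FPKM values for input RNA. Both had been divided by gene length and by a scaling total for each library. Read numbers were recovered from them within 0.02 reads for all 30194 genes above 0, with lengths solved from the values. For microRNA genes 98.6% to 99.4% of values were whole. They gave depths and counting intervals, and entered only the voom alternative.

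Whole tables were fitted with limma 3.58.1 in R 4.3.3 with a mean-variance trend and two-sided tests. Values entered as log2(value + 1), and genes whose mean over a table was under 1 were left out. Log2 changes of low genes are therefore understated. TE was fitted in genes passing in both tables with a single variance for each gene, although footprints varied far more than RNA, so TE p-values may be too small. Calls were an adjusted p under 0.05 (Benjamini-Hochberg). Groups came from sample titles; the sh-circMYBL2 footprint columns name no replicate and are called a and b. Named genes were all 10 chaperones, their copies, and in each list up to 4 genes that passed with the smallest p, or else the 2 most abundant. AFG3L2, GRPEL1, the myeloid and adherent cell markers that did not pass, and the E-box search were added after values or windows were seen. A gene of the kinase list is not reported here. The chaperones and lists were chosen with earlier results of these data known. Fits were tested on simulated data. Sequences are RefSeq windows of GRCh38.p14.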

Additional observations from a re-analysis of the deposited data

How the results depend on the processing

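Depth limits footprints and TE, since the shallowest library held 80160 reads on genes, and 2 libraries in a group limit every test. For input RNA, 2 chaperones passed, against 1 without the filter, over genes above 0 in every library or after quantile normalization, 4 with voom (HSP90AA1, DNAJA1 and HSPH1 higher, HSPA9 lower), and 0 to 0 without any 1 library. All genes called in RNA numbered 1109, against 97 without the filter, 2582 after protein-coding rescaling (65.6% of them higher, against 55.5%), 3266 with voom and 0 to 0 without any 1 library, where 2610 to 2828 genes had an unadjusted p under 0.05. Footprint calls over all genes numbered 0, 56 with voom and 0 to 746 without 1 library (746 without sh-circMYBL2 library a, 712 without b). TE calls over all genes numbered 439, against 853 with a pseudocount of 0.1, 2 with a pseudocount of 5, 0 over genes above 0 in every library, 0 after quantile normalization, 176 with voom, 0 with a variance for each assay and 0 to 4953 without 1 library. TE calls among chaperones ran from 0 to 4 without 1 library. The cause was not tested.

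Signs turned for changes near 0 and for footprints. In RNA this was so for HSPA8 (-0.00141 to 0.0908), HSP90AB1 (-0.0366 to 0.0440) and HSPE1 (-0.0523 to 0.178) without 1 library, and for HSP90AB1 after quantile normalization (-0.0664). Footprint changes without 1 library ran from -0.247 to 0.512 for HSPA8, -0.107 to 1.18 for HSP90AA1, -0.399 to 0.763 for HSP90AB1, -1.85 to 2.83 for HSPE1, -0.0267 to 1.12 for HSPA9, -0.484 to 0.255 for DNAJA1 and -0.0378 to 2.12 for DNAJB1. Protein-coding rescaling gave footprint changes of -0.0559 for HSPA8 and -0.00715 for HSP90AB1, quantile normalization -0.0600 for HSPE1 and 0.211 for DNAJA1, and a pseudocount of 5 gave -0.131 for HSPE1. TE changes without 1 library ran from -0.291 to 0.468 for HSPA8, -0.314 to 0.977 for HSP90AA1, -0.403 to 0.759 for HSP90AB1, -1.91 to 2.77 for HSPE1, -0.0384 to 2.74 for HSPH1, -0.687 to 0.0519 for DNAJA1 and -0.126 to 2.03 for DNAJB1. Protein-coding rescaling gave TE changes of -0.131 for HSPA8 and -0.0413 for HSP90AB1, and HSPE1 had -0.166 with a pseudocount of 5 and -0.164 after quantile normalization.

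With the replicate number as a block, 0 chaperones and 0 genes passed in RNA (3373 genes at an unadjusted p under 0.05). Deviations of same-numbered RNA libraries of the 2 hairpins correlated with r = 0.0265 across 12489 genes. With 2 libraries in a group this value cannot show whether same-numbered libraries shared a culture or a batch. No paired analysis was possible for footprints and TE because the sh-circMYBL2 footprint columns carry no replicate number.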

Other observations

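Introns of HSPA8 hold small nucleolar RNA genes that guide modification of ribosomal RNA. SNORD14E (chr11:123058077-123058156), inside HSPA8, had 0 and 12 footprint-library reads in sh-NC libraries and 13 and 32 in sh-circMYBL2 libraries, or 0 and 761 against 591 and 338 RPKM, and SNORD14C and SNORD14D had 0 in all 8 libraries. Genes are listed apart in the tables. SNORD63 (chr5:138561043-138561110) lies inside HSPA9. As 3 entries carry that name and their match to this place is not known, its values are left out. How reads that lie on both a host gene and a gene inside it were assigned is not given in the sources used here. The gene length recovered for HSPA8 was 4849 bases, and whether the values of HSPA8 or HSPA9 hold such reads was not tested.

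The protein-coding genes most like HSPA8 over the 8 libraries, by Pearson's r of log2 values standardised within each assay, were RRP36 (0.995), MFAP1 (0.980) and KBTBD8 (0.976) among 7701 genes. Of the chaperones, HSPH1 (0.839), DNAJA1 (0.805), HSP90AA1 (0.791) and HSP90AB1 (0.764) were the most alike, while HSPA9 (0.203), HSPD1 (0.0492), DNAJB1 (0.0338) and HSPE1 (-0.110) were not. Genes of a library share its depth and hairpin, so these values describe the libraries alone and carry no test.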
